A study of Mus musculus with 7 samples.

Results

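The small leucine-rich proteoglycans are secreted matrix proteins built from leucine-rich repeats, and 10 of the 31253 genes counted here were followed as members of the family: Dcn, Bgn, Lum, Fmod, Ogn, Prelp, Aspn, Omd, Chad and Podn. They were chosen by name, with earlier results of these data known. Their unique molecular identifiers (UMIs, 1 per captured transcript) were summed in each library over the cells of a class. The samples were single-cell libraries of mouse aorta made on the BD Rhapsody system, a microwell platform in which barcoded beads tag the RNA of each cell. Of the 7 libraries, 4 came from Slc38a2 ΔEC mice (Slc38a2deltaEC in the labels), in which EC stands for endothelial cells, and 3 from Slc38a2 flox/flox mice, whose Slc38a2 alleles are flanked by recombination sites. All 7 carried floxed Slc38a2, and all mice ate a high-salt diet for 3 weeks, so no library stands for a normal-salt diet. The promoter that drives the recombinase, the deleted exons and the age of the mice are not given in the labels. The protein encoded by Slc38a2 carries neutral amino acids into cells together with sodium.

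Small leucine-rich proteoglycans bind to collagen fibrils outside the cell and set how thick the fibrils grow and how they are spaced. Decorin (Dcn) and biglycan (Bgn) carry chondroitin or dermatan sulfate chains, lumican (Lum), fibromodulin (Fmod) and osteoadherin (Omd) carry keratan sulfate, and asporin (Aspn) carries no such chain. Several of them also bind growth factors, above all transforming growth factor beta, and in arteries they fill the adventitia, where fibroblasts lie among collagen, and the matrix around smooth muscle cells.

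Most members lie in small clusters in the mouse genome (GRCm38, GENCODE vM21). Dcn (chr10:97479609-97518143) and Lum (chr10:97565128-97572703) are neighbours on the plus strand, 47.0 kb apart. Aspn (chr13:49544443-49567565), Omd (chr13:49582462-49592822) and Ogn (chr13:49608046-49624501) follow each other on chromosome 13 with gaps of 14.9 and 15.2 kb. Prelp (chr1:133910304-133921414, minus strand) and Fmod (chr1:134037254-134048277, plus strand) are 116 kb apart, and in each of these 4 gaps 0 protein-coding genes are annotated. Bgn (chrX:73483602-73495933), Chad (chr11:94565047-94569127) and Podn (chr4:108014791-108096445, minus strand) lie apart from the other members. RefSeq promoters of GRCm38.p6 matched 8 of the 10 members. The 250 bases before the start site are shown for Bgn, at similar levels in fibroblast-like and smooth muscle-like cells, for Fmod and Podn, whose levels spanned the widest range between fibroblast-like states, for Aspn, which moved against most other members between these states, and for Chad, which was read in few cells. Capitals mark matches, on either strand, to TATAAA, the TATA box, to CAGCTG, an E-box, and to GGGCGG, a GC box bound by Sp factors.
Bgn, plus strand, chrX:73483351-73483600: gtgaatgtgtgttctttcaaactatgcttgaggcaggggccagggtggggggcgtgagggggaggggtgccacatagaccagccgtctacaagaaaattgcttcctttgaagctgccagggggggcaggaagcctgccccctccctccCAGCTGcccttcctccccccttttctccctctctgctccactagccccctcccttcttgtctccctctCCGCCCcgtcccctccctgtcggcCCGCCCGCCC
Fmod, plus strand, chr1:134037004-134037253: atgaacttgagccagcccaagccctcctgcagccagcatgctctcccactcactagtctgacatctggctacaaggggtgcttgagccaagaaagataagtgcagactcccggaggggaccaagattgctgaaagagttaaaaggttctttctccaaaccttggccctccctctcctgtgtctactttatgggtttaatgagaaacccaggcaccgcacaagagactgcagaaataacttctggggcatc
Podn (the first of its listed start sites), minus strand, chr4:108031955-108032204: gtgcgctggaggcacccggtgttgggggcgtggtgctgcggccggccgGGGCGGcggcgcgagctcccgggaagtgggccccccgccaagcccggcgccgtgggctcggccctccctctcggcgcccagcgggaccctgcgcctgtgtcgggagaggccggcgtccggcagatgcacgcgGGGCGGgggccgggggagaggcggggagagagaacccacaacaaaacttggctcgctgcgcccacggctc
Aspn, plus strand, chr13:49544193-49544442: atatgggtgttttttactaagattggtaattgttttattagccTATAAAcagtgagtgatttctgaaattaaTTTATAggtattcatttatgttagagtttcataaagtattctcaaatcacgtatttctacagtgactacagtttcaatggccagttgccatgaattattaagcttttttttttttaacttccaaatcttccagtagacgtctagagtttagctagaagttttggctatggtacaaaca
Chad, plus strand, chr11:94564797-94565046: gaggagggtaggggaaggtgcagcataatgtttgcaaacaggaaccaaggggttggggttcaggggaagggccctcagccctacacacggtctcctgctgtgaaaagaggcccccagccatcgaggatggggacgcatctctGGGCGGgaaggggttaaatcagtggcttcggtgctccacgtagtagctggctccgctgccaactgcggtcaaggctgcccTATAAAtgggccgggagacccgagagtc
Counted from the start site, the Bgn window held CAGCTG at -102 and GGGCGG at -34, -10 and -6, where the matches at -10 and -6 overlap, the Podn window GGGCGG at -202 and -70, the Aspn window TATAAA at -207 and -178, and the Chad window GGGCGG at -108 and TATAAA at -28. The Fmod window held 0 of the 3 motifs. Among 32851 promoter windows of the same length, 12.4% held TATAAA, 13% CAGCTG and 32.7% GGGCGG. The CArG box bound by serum response factor, held by 1.47% of the windows, was in 0 of the members' windows. These matches describe the letters only.

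Between 6167 and 13792 barcodes and 22646246 and 73102988 UMIs stood behind each library, and 67474 cells passed the filters. Cells were put into classes by markers other than the members, and a class is called by the cell type it resembles. Fibroblast-like cells numbered 35315, smooth muscle-like cells 19474, macrophage-like cells 3957 and endothelial-like cells 1290, while 5969 cells with a median of 678 UMIs stayed without a class. The cell type that the labels name, goblet cells, was not seen: 0 cells carried 3 or more of 7 goblet markers. Levels are given as CPM, the UMIs of a gene per 1000000 UMIs of that class and library. Libraries shared 68 to 218 cell barcodes per pair. Whether each library is from a mouse of its own is not in the labels, so p-values measure the spread between libraries, which may be technical. Flox/flox library 1 had the highest sums of fibroblast and smooth muscle markers in the other classes. The fibroblast markers summed to 1568 CPM in its macrophage-like cells and to 315 to 749 CPM in those of the other 6 libraries, and the smooth muscle markers to 1020 CPM in its fibroblast-like cells and to 137 to 569 CPM elsewhere. Endothelial markers in fibroblast-like cells were highest in flox/flox library 3 (381 CPM), and endothelial markers in smooth muscle-like cells and macrophage markers in endothelial-like cells in ΔEC library 4 (112 and 166 CPM).

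Fibroblast-like cells held more of 8 of the 10 members than smooth muscle-like cells, while Bgn was at a similar level in both. In edgeR's quasi-likelihood test with the library as a block, these 8 were higher in fibroblast-like cells and 0 were lower, where 38.8% of the 15488 genes tested were higher and 38.2% lower. Fmod and Dcn differed most. In this and the following contrasts of classes and states, 3 CPM values are the lowest, the median and the highest of the 7 libraries, and log2 fold changes come from edgeR with its TMM scaling.

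Dcn, which limits the width of collagen fibrils and binds transforming growth factor beta, was at 10417, 11314 and 14238 CPM in fibroblast-like cells and 80.7, 146 and 595 CPM in smooth muscle-like cells. Within single libraries the ratio ran from 19.0 in flox/flox library 1 to 129, and the log2 fold change was 5.92 (SE 0.31), adjusted p = 2.23e-08. The 2 classes did not overlap. Fmod, which guides collagen cross-linking, was at 311, 621 and 767 CPM in fibroblast-like cells and 4.62, 6.20 and 33.4 CPM in smooth muscle-like cells, a log2 fold change of 6.08 (SE 0.37), adjusted p = 6.26e-08. Lum, which spaces collagen fibrils in the cornea and skin, was at 376, 597 and 985 CPM in fibroblast-like cells and 6.16, 13.2 and 58.2 CPM in smooth muscle-like cells, a log2 fold change of 5.47 (SE 0.34), adjusted p = 7.48e-08. For all 3 genes the highest smooth muscle-like value was that of flox/flox library 1, and still lay under every fibroblast-like value. Podn, podocan, whose loss in mice lets smooth muscle cells grow more after injury, was at 201, 301 and 348 CPM in fibroblast-like cells and 6.71, 8.48 and 18.7 CPM in smooth muscle-like cells, a log2 fold change of 4.87 (SE 0.19), adjusted p = 2.76e-09.

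The 3 neighbours on chromosome 13 differed in the size of their contrast. Omd, first found in bone matrix, was at 124, 147 and 156 CPM in fibroblast-like cells and 16.0, 19.8 and 22.8 CPM in smooth muscle-like cells, a log2 fold change of 2.77 (SE 0.08), adjusted p = 3.82e-10. Aspn, which binds collagen and holds transforming growth factor beta back from its receptor, was at 446, 496 and 613 CPM in fibroblast-like cells and 76.9, 118 and 219.9 CPM in smooth muscle-like cells, a log2 fold change of 2.01 (SE 0.17), adjusted p = 7.42e-07. Ogn, osteoglycin or mimecan, was at 2728, 3119.8 and 4260.1 CPM in fibroblast-like cells and 1149, 1838 and 2099.7 CPM in smooth muscle-like cells, a log2 fold change of 0.84 (SE 0.15), adjusted p = 0.000307. Each was higher in fibroblast-like cells in 7 of 7 libraries, with no overlap between the classes. Prelp, which anchors basement membranes to the tissue around them, was likewise higher in 7 of 7 libraries, at 866, 984 and 1329 CPM in fibroblast-like cells and 451, 503 and 631 CPM in smooth muscle-like cells, a log2 fold change of 0.87 (SE 0.10), adjusted p = 8.16e-06.

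Bgn, which when set free from the matrix also acts on Toll-like receptors, was at 2180.5, 2739.7 and 3733 CPM in fibroblast-like cells and 2262, 2740.0 and 3157 CPM in smooth muscle-like cells. The ranges overlapped and the log2 fold change was -0.05 (SE 0.07), adjusted p = 0.514. Its sign turned with DESeq2 size factors (0.00), in DESeq2 (0.00), with library totals (0.07) and without ΔEC library 4 (0.01). Library totals moved the median of all genes in this contrast to 0.15, against 0.01 with TMM. Chad, a cartilage protein that binds an integrin on chondrocytes, gave few UMIs in both classes, at 0.0458, 0.613 and 5.19 CPM in fibroblast-like cells and 0, 1.23 and 2.80 CPM in smooth muscle-like cells.

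**Figure D1:**
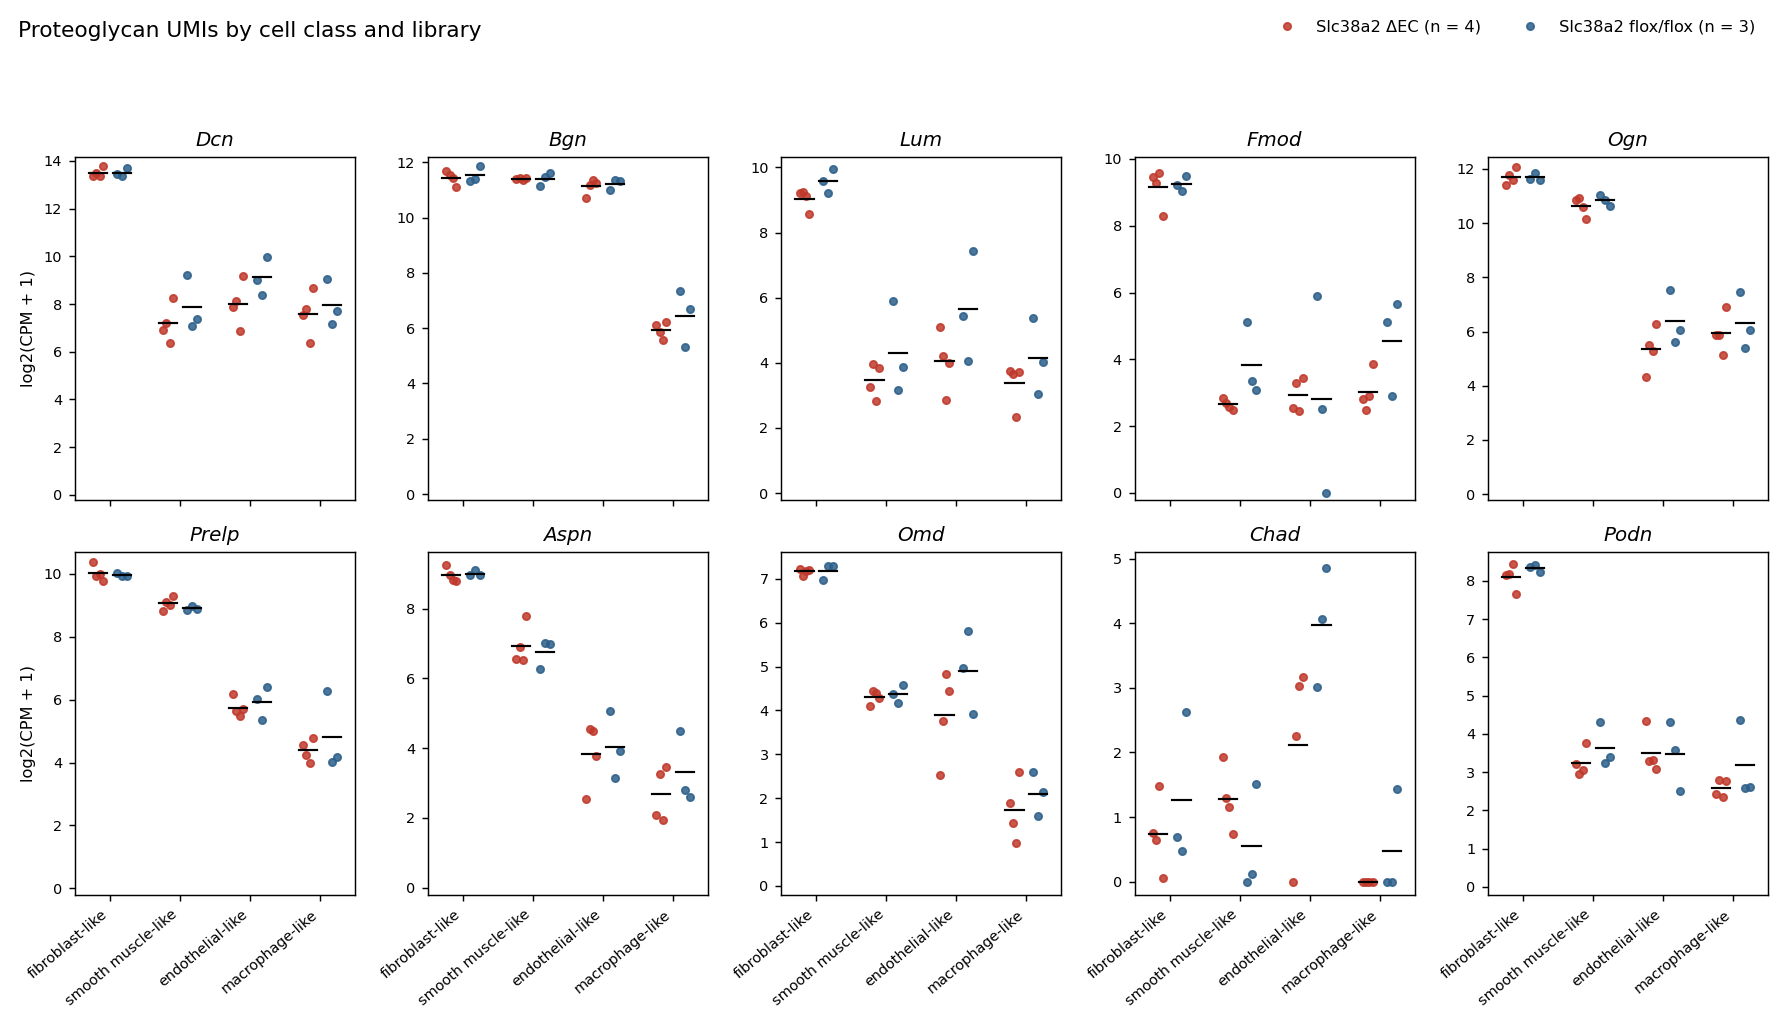
UMIs of the 10 members as log2(CPM + 1) in fibroblast-like, smooth muscle-like, endothelial-like and macrophage-like cells, with 1 point per library, ΔEC left of flox/flox, and a bar at the mean of each group. Bgn is at a similar height in fibroblast-like, smooth muscle-like and endothelial-like cells, while Dcn, Lum, Fmod and Podn of smooth muscle-like cells lie close to their macrophage-like values.

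Macrophages are not known as a main source of these matrix proteins, and the UMIs of the members in macrophage-like cells are taken here as the background. In macrophage-like cells the medians of 9 members (all but Chad) stood at 1.10% to 2.10% of the fibroblast-like level. Their make-up was close to that of fibroblast-like cells: Dcn gave 3.62% of the members' UMIs in smooth muscle-like cells, 13.1% in endothelial-like cells and 54.7% in fibroblast-like cells, against 52.8% in macrophage-like cells. The share of Bgn was 50.3% in smooth muscle-like cells, 79.9% in endothelial-like cells and 13.7% in fibroblast-like cells, against 15.5% in macrophage-like cells. Ogn gave 33.7% in smooth muscle-like cells and 16.1% in fibroblast-like cells, against 16.2% in macrophage-like cells. These shares are of UMIs and were not divided by transcript length, so they set no gene above another. T or NK-like cells, with 5 libraries of at least 20 cells, had 85.8, 117 and 199.8 CPM of Dcn, and erythroid-like cells, also with 5, had 908, 981 and 2061 CPM, so the background differed between immune and blood classes.

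**Figure D2:**
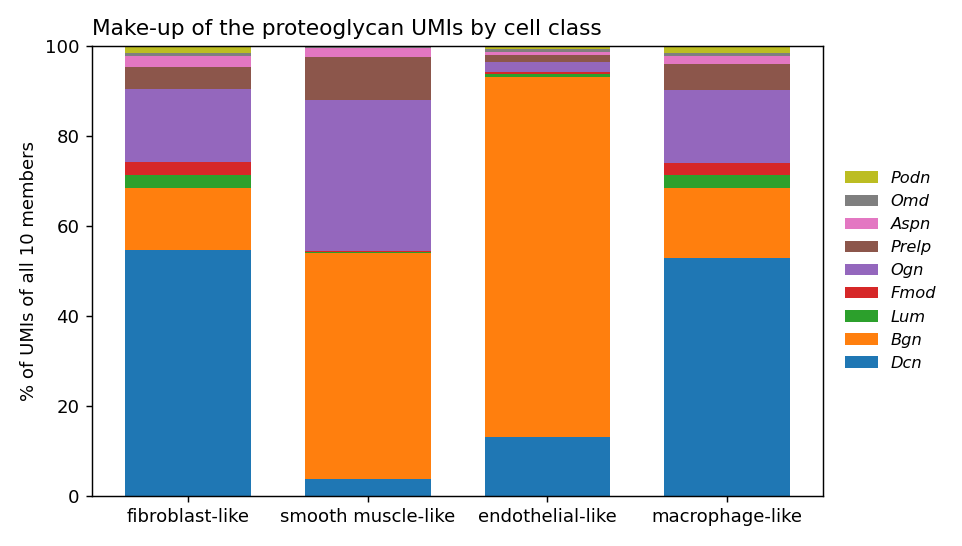
Share of each member (colours) in the UMIs of all 10 members, in percent, in fibroblast-like, smooth muscle-like, endothelial-like and macrophage-like cells over all 7 libraries (Chad, too small to see, is left out). The fibroblast-like and macrophage-like bars are alike, with 54.7% and 52.8% Dcn, while Bgn and Ogn fill most of the smooth muscle-like bar and Bgn most of the endothelial-like bar.

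Against this background, smooth muscle-like cells were higher for Bgn, Ogn, Prelp, Aspn, Omd and Podn, and 0 of the 9 members tested were lower (42.8% of 12972 genes were higher and 38.1% lower, 80.9% in all). The log2 fold changes were 5.33 (SE 0.26) for Bgn, 4.70 (SE 0.30) for Ogn, 4.50 (SE 0.29) for Prelp, 3.91 (SE 0.32) for Aspn and 2.86 (SE 0.25) for Omd, all with no overlap between the classes and adjusted p of at most 2.18e-07. Podn rose by 0.57 (SE 0.19, adjusted p = 0.0123), in 6 of 7 libraries. Pooled over libraries, Podn was at 9.50 CPM in smooth muscle-like cells, under the 18.1 CPM of erythroid-like cells (17 UMIs). Dcn, Lum and Fmod did not pass. Dcn was at 80.7, 146 and 595 CPM in smooth muscle-like cells and 80.4, 210.1 and 536 CPM in macrophage-like cells, a log2 fold change of -0.22 (SE 0.10), adjusted p = 0.0663. The log2 fold changes of Lum and Fmod were 0.26 (SE 0.13) and -0.37 (SE 0.31), adjusted p = 0.092 and 0.285. These 3 results depended on the setting. Dcn was called lower with library totals (-0.27), with DESeq2 size factors (-0.25), in DESeq2 (-0.25), with the stricter cell filter (-0.31) and without flox/flox library 1 (-0.30), and was called higher under none of the alternatives run. Lum was called higher with no filter on low counts (0.40), with the stricter cell filter (0.55) and without ΔEC library 1 (0.34), but was at -0.03 with the stricter marker gate. Fmod was called under none of the alternatives run.

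In endothelial-like cells, the class that lines the vessel, Bgn stood far above background. Of the 10 members, Bgn, Omd, Prelp, Aspn and Chad were higher than in macrophage-like cells and Ogn was lower (32.4% of 11367 genes were higher and 33.8% lower, 66.2% in all). Chad, with 1 UMI in macrophage-like cells, passed the filter on low counts only through endothelial-like cells. Its call is therefore no independent result. Bgn was at 1662, 2452 and 2618 CPM in endothelial-like cells and 38.9, 68.2 and 161 CPM in macrophage-like cells, with no overlap and a log2 fold change of 4.70 (SE 0.25), adjusted p = 1.45e-10. In the share of cells with a UMI, after thinning each cell to 1000 UMIs, Bgn was read in 80.6% of ΔEC and 74.8% of flox/flox endothelial-like cells, against 4.46% of ΔEC and 7.59% of flox/flox macrophage-like cells. The unthinned shares were 88.1% and 84.8% in endothelial-like cells of ΔEC and flox/flox libraries, at median depths of 2926 and 2786 UMIs, against 16.4% and 25.3% in macrophage-like cells at 4802 and 4220 UMIs. Thinning left out 125 and 48 endothelial-like cells and 134 and 100 macrophage-like cells of ΔEC and flox/flox libraries with fewer UMIs. Omd was at 4.79, 20.7 and 55.3 CPM in endothelial-like cells and 0.955, 2.73 and 5.05 CPM in macrophage-like cells, higher in 7 of 7 libraries, with a log2 fold change of 2.87 (SE 0.38), adjusted p = 6.26e-06, although the ranges overlapped.

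The other endothelial-like contrasts were small or rested on few UMIs. Prelp rose by 0.84 (SE 0.22, adjusted p = 0.00287) and Aspn by 0.82 (SE 0.30, adjusted p = 0.0263) on the log2 scale. Pooled over libraries, these 2 members were at 50.7 and 16.9 CPM in endothelial-like cells, under the 94.6 and 54.2 CPM of erythroid-like cells. The call of Aspn was lost with called doublets kept (0.45) and without ΔEC library 2 (0.76) or 3 (0.51). Ogn fell by 0.52 (SE 0.16, adjusted p = 0.00914), in 4 of 7 libraries in CPM, a call lost without ΔEC library 4 (-0.36) and with library totals (-0.21), which moved the median of all genes to 0.34. With that scaling Dcn (0.71) and Lum (0.99) were called higher, as was Podn, and 4942 of 7848 called genes were higher, against 3681 of 7522 with TMM. With TMM Dcn and Lum had log2 fold changes of 0.38 (SE 0.19) and 0.66 (SE 0.30), adjusted p = 0.091 and 0.0688. Both were called higher with no filter on low counts (0.39 and 0.67) and without flox/flox library 1 (0.51 and 0.88), and Lum also without ΔEC library 4 (0.85). Foreign markers were not at 0 in this class: the 11 fibroblast markers summed to 513 to 955 CPM in ΔEC libraries and to 1892, 816 and 936 CPM in flox/flox libraries 1 to 3. Their part in these contrasts was not tested.

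Chad gave 44 UMIs in 29 endothelial-like cells of 6 libraries, against 1 UMI in macrophage-like cells. Pooled, this was 8.55 CPM against 0.0514 CPM, a ratio of 167 with an exact Poisson 95% interval of 28.4 to 6725, which covers counting error only. The interval takes all UMIs as independent, also those of the same cell or library, so it lends the call of Chad no support. Endothelial-like cells of ΔEC libraries 1 to 4 had 0, 3.77, 7.13 and 8.04 CPM and those of flox/flox libraries 1 to 3 had 7.03, 15.8 and 28.1 CPM, so the values of Chad overlapped between genotypes. Against fibroblast-like cells the pooled ratio was 8.91 (6.28 to 12.4, again counting error only). In single libraries the endothelial-like level of Chad ran from 0% to 17562% of the fibroblast-like level, with a median of 663%. In the 68 lymphatic endothelial-like cells, Prelp was at 1386, 663 and 1265 CPM in ΔEC libraries 1 to 3, against 1461 and 1238 CPM in flox/flox libraries 1 and 2, from 4, 4 and 12 cells against 15 and 33 cells. These 5 values of Prelp lay above the endothelial-like range of 39.5 to 84.2 CPM, and 4 of them within or above the fibroblast-like range of 866 to 1329 CPM. With 1 library of at least 20 cells, the lymphatic endothelial-like class had no test.

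Fibroblast-like cells were split by state markers that hold no member: 10063 cells of an Hhip state (Hhip binds hedgehog proteins), 4601 of an inflammatory state (Il6, Lif, Cxcl1, Ptgs2), 2877 of a Pi16/Dpp4 state, known from adventitial fibroblasts near the outer edge of vessels, and 546 of a Cilp/Myoc/Angptl1 state. A further 12405 cells carried no state and 4823 were mixed. Fmod and Podn had the widest range over the states, highest against cells of no state in the Hhip state and lowest in the Pi16/Dpp4 state, while Aspn was highest in the Cilp/Myoc/Angptl1 state. The states come from other transcripts of the same cells. Hhip and Fmod had been named together for a group of fibroblasts in these data before the split. A higher Fmod in the Hhip state is therefore no independent result. The states also differed in depth. The median UMIs per cell were 3912 to 6702 in the Hhip state, 4844 to 8093 in the inflammatory state, 3690 to 7647 in the Pi16/Dpp4 state and 2767 to 7188 in the Cilp/Myoc/Angptl1 state, against 2667 to 5264 in cells of no state. The part of depth in the contrasts was not tested.

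In the Hhip state 8 members were higher and 0 lower than in cells of no state (10% of 14077 genes were higher and 7.74% lower). Fmod was at 1131, 1032, 1213 and 804 CPM in Hhip-state cells of ΔEC libraries 1 to 4 and 856, 823 and 973 CPM in those of flox/flox libraries 1 to 3, against 597, 537, 579 and 385 CPM and 505, 519 and 534 CPM of Fmod in cells of no state. The ranges did not overlap, and the log2 fold change was 0.98 (SE 0.05), adjusted p = 3.55e-10. Podn was at 372, 409 and 470.0 CPM in the Hhip state and 248, 278 and 338 CPM in cells of no state, again with no overlap and a log2 fold change of 0.60 (SE 0.04). Omd rose by 0.56, Lum by 0.43, Prelp by 0.31, Ogn by 0.30 and Bgn by 0.19 on the log2 scale, each in 7 of 7 libraries. Dcn rose by 0.11 (SE 0.03), in 5 of 7 libraries, a call lost with library totals (0.03). Aspn did not pass, with -0.17 (SE 0.06) and adjusted p = 0.074, and was lower in 6 of 7 libraries. It was called lower with library totals (-0.25), where 769 of 2937 called genes were higher, against 1408 of 2498 with TMM.

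The Pi16/Dpp4 state went the other way for most members: 8 were lower than in cells of no state and Aspn was higher (21.6% of 12458 genes were lower and 20.2% higher). Fmod was at 41.2, 67.3, 39.9 and 25.9 CPM in Pi16/Dpp4-state cells of ΔEC libraries 1 to 4 and 70.9, 44.6 and 47.0 CPM in those of flox/flox libraries 1 to 3, against a range of 385 to 597 CPM in cells of no state. Fmod fell by 3.49 (SE 0.11) on the log2 scale, adjusted p = 3.07e-13. Podn fell by 2.19 (SE 0.08), to 49.3, 63.3 and 82.3 CPM, against 248, 278 and 338 CPM in cells of no state. Lum fell by 1.79 (SE 0.11), Bgn by 1.30 (SE 0.06) and Dcn by 0.60 (SE 0.04). For these 5 genes the ranges did not overlap. Omd, Prelp and Ogn fell by 0.68, 0.58 and 0.55, in 7 of 7 libraries with overlapping ranges. Aspn was at 551, 713 and 1111 CPM in the Pi16/Dpp4 state and 351, 470.1 and 619 CPM in cells of no state and rose by 0.70 (SE 0.05, adjusted p = 3.78e-09), in 7 of 7 libraries.

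**Figure D3:**
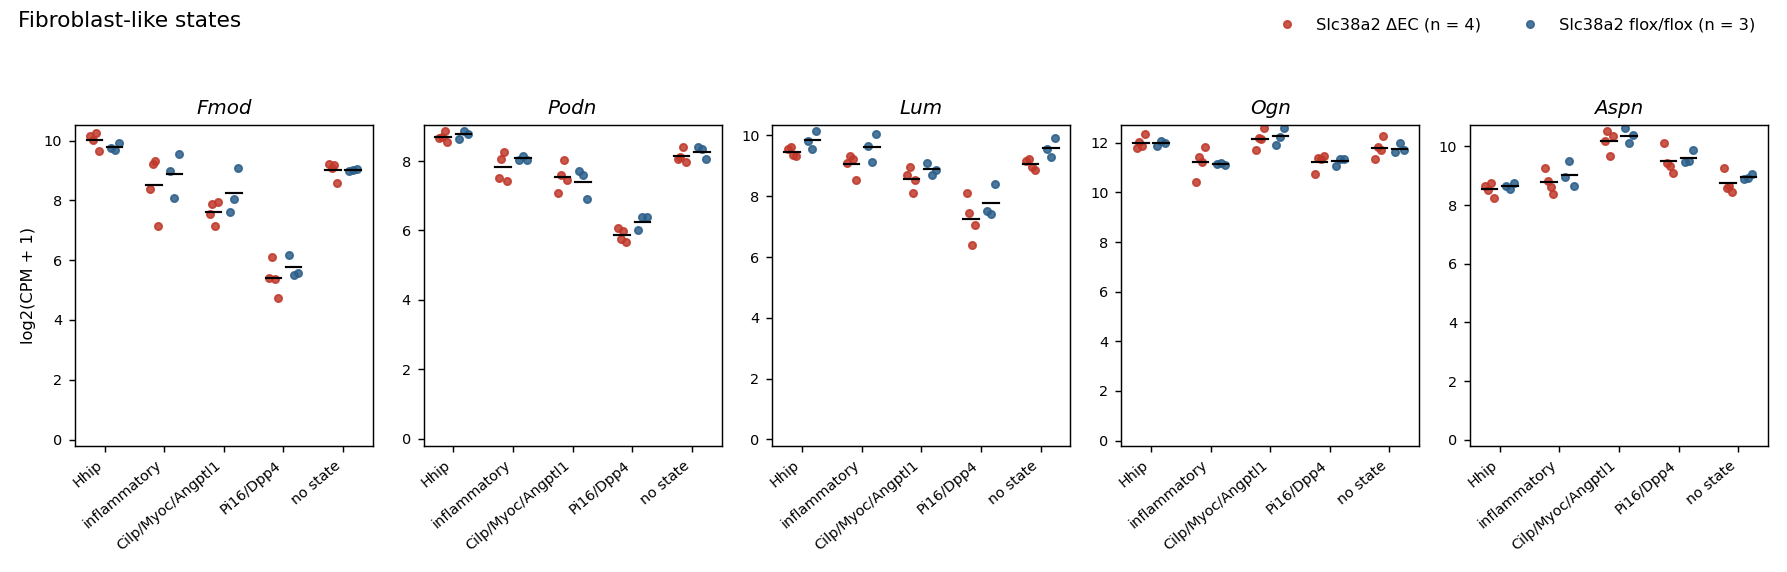
Fmod, Podn, Lum, Ogn and Aspn as log2(CPM + 1) in the 4 fibroblast-like states and in cells of no state, with 1 point per library, ΔEC left of flox/flox, and a bar at the mean of each group. Fmod spans 804 to 1213 CPM in the Hhip state and 25.9 to 70.9 CPM in the Pi16/Dpp4 state, and Aspn is highest in the Cilp/Myoc/Angptl1 state.

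In the Cilp/Myoc/Angptl1 state, Aspn and Ogn were higher and Fmod, Podn, Lum and Dcn lower (4.25% of 11081 genes were higher and 4.73% lower). Aspn was at 1166, 1477, 817 and 1304 CPM in that state in ΔEC libraries 1 to 4 and 1566, 1108 and 1336 CPM in flox/flox libraries 1 to 3, against 619, 383, 405 and 351 CPM and 470.1, 489 and 536 CPM of Aspn in cells of no state. There was no overlap, and the log2 fold change was 1.43 (SE 0.11), adjusted p = 1.5e-11. Its neighbour Ogn rose by 0.40 (SE 0.07), in 7 of 7 libraries. Fmod fell by 1.17 (SE 0.13), Podn by 0.65 (SE 0.09) and Lum by 0.54 (SE 0.09). Dcn fell by 0.22 (SE 0.07), a call lost without any 1 of 5 libraries (flox/flox 1 or 2, ΔEC 2, 3 or 4; -0.21 to -0.18). The state held 26 to 150 cells per library, and Bgn, Prelp and Omd did not pass there.

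The inflammatory state gave calls that depended on the scaling. With TMM, Aspn rose by 0.29, Lum by 0.25 and Bgn by 0.17 on the log2 scale, while Omd fell by 0.36 and Ogn by 0.35 (SE 0.05 to 0.08; 22.5% of 12942 genes were higher and 21.9% lower). With library totals the median of all genes moved to -0.29, against -0.05 with TMM. Then 0 members were called higher, with Aspn at 0.05, Lum at 0.01 and Bgn, its sign turned, at -0.07, and 5 were called lower: Omd (-0.60), Ogn (-0.59), Dcn (-0.32), Podn (-0.26) and Prelp (-0.25). Over all genes, 1497 of 8057 called genes were higher with library totals, against 2918 of 5746 with TMM. In CPM, Omd and Ogn were lower in 7 of 7 libraries, while Aspn and Lum were higher in 4 of 7 and Bgn in 2 of 7. The fall of Omd and Ogn was the part that both scalings called. Dcn, Fmod, Prelp and Podn did not pass with TMM, with log2 fold changes of -0.08 to -0.01. Fmod in the inflammatory state was at 330.2, 597, 642 and 141 CPM in ΔEC libraries 1 to 4, against 503, 272 and 751 CPM in flox/flox libraries 1 to 3.

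**Figure D4:**
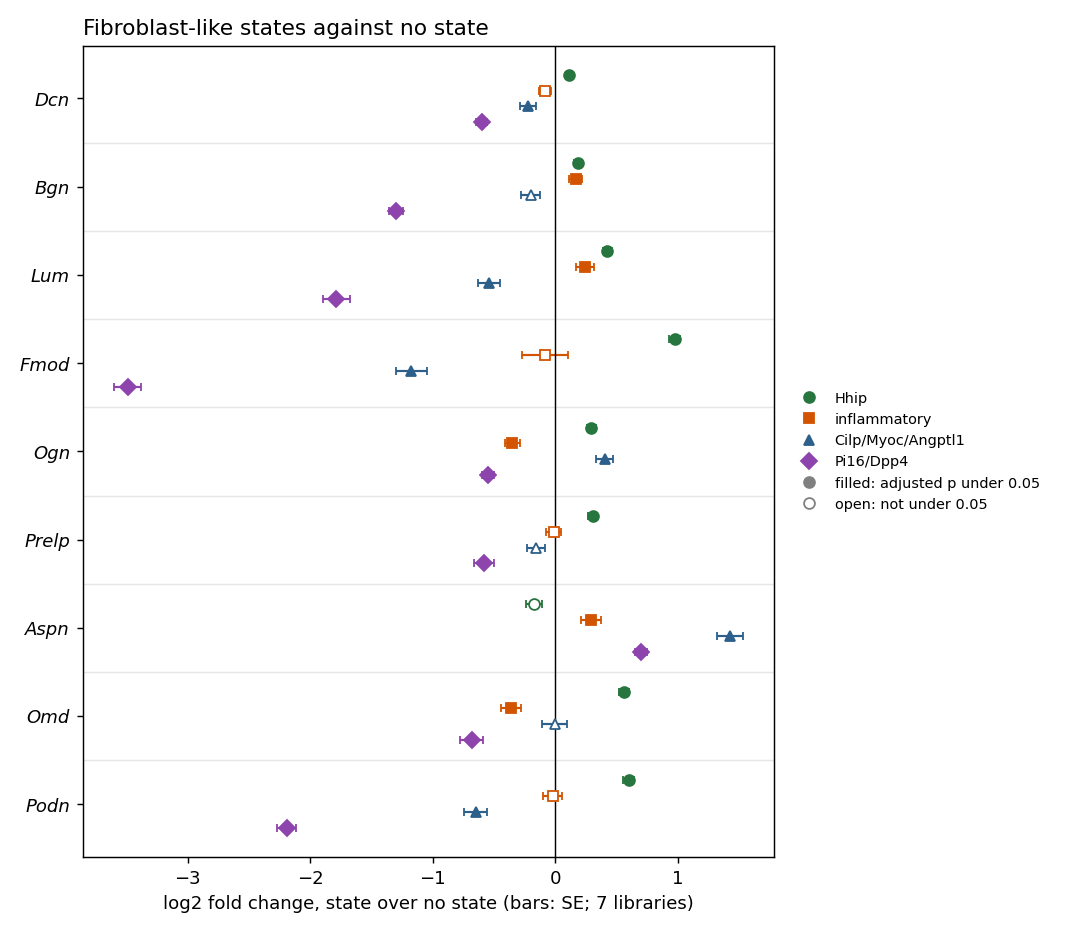
Log2 fold changes (points; bars are the SE) of 9 members in each of 4 fibroblast-like states over cells of no state, from edgeR over 7 libraries, filled where the adjusted p is under 0.05. Fmod runs from 0.98 in the Hhip state to -3.49 in the Pi16/Dpp4 state, and Aspn is at 1.43 in the Cilp/Myoc/Angptl1 state, while the filled points of Aspn, Lum and Bgn in the inflammatory state are not called with library totals.

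Over the 35 sums of 5 fibroblast-like groups (4 states and no state) in 7 libraries, log2 CPM of Bgn and Lum went together with Pearson's r of 0.93, Fmod and Podn with 0.92, and Lum and Fmod with 0.90. These sums share libraries and depth, and r is a description. The shares of the states differed between libraries: ΔEC library 4 had 18.8% of its fibroblast-like cells in the Pi16/Dpp4 state and 17.6% in the Hhip state, while the other 6 had 4.12% to 8.10% and 21.1% to 36.3%. In the fibroblast-like class as a whole, ΔEC library 4 also had the lowest Fmod, 311 CPM, and the lowest Podn, 201 CPM. The part of the state shares in those levels was not tested.

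Smooth muscle-like cells were split by Rgs5, a regulator of G-protein signalling found in pericytes and part of arterial muscle. Aspn was lower in Rgs5-positive cells (at least 2 UMIs, 11970 cells) than in Rgs5-negative cells (0 UMIs, 5778 cells). Rgs5-positive cells were deeper on average, but by less than their totals of 59996351 against 23560595 UMIs, which also reflect the larger number of cells. The part of depth was not tested. Of the 10 members 1 was higher and 3 were lower (2.97% of 12130 genes were higher and 5.03% lower). Aspn was at 75.5, 84.8, 78.8 and 179.9 CPM in Rgs5-positive cells of ΔEC libraries 1 to 4 and 65.1, 87.9 and 65.9 CPM in those of flox/flox libraries 1 to 3, against 195, 159, 117 and 232 CPM and 128, 189.5 and 208 CPM of Aspn in Rgs5-negative cells. It was lower in 7 of 7 libraries, the ranges overlapped through ΔEC library 4, which held 47 Rgs5-positive cells, and the log2 fold change was -1.02 (SE 0.09), adjusted p = 2.65e-07. Prelp fell by 0.31 (SE 0.05, adjusted p = 0.000714) and Ogn rose by 0.23 (SE 0.04, adjusted p = 0.0017), both in 7 of 7 libraries. Podn fell by 0.42 (SE 0.12, adjusted p = 0.0281), a call lost with DESeq2, with no filter on low counts and without flox/flox library 1 or 3 or ΔEC library 1 or 3 (-0.42 to -0.39). Dcn, Bgn, Lum, Fmod and Omd did not pass, with log2 fold changes of -0.28 to 0.07.

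A small part of the smooth muscle-like cells, 630 of 19474, carried at least 2 of the chondrocyte markers (Acan, Sox9, Comp and others), and these cells held more Chad, Lum and Bgn and less Ogn than the 15052 cells with none of the markers. ΔEC library 4, with 16 such cells, was left out, so the contrast rests on 6 libraries (2.97% of 11869 genes were higher and 2.12% lower). Cells with the markers were deeper: the 630 cells held 4523653 UMIs and the 15052 cells 65411148. The part of depth in this contrast was not tested. Chad gave 42 UMIs over all 7 libraries in cells with the markers and 57 in those without, 9.28 CPM against 0.871 CPM. Its log2 fold change was 3.55 (SE 0.52), adjusted p = 2.03e-06, higher in 4 of 6 libraries, with ratios from 0 to 163. Chad is itself a cartilage protein and the cells were picked by chondrocyte markers, so its call is no independent result. Lum was higher in 6 of 6 libraries by ratios of 1.03 to 10.3, with a log2 fold change of 1.69 (SE 0.24), adjusted p = 1.23e-06, and was not called by DESeq2 (1.53, adjusted p = 0.064). Bgn was higher in 6 of 6 libraries by ratios of 1.17 to 1.43, a log2 fold change of 0.25 (SE 0.05). Ogn was lower in 6 of 6 libraries, a log2 fold change of -0.46 (SE 0.06). The other 6 members did not pass, with log2 fold changes of -0.29 to 0.20. With library totals 507 of 683 called genes were higher, against 352 of 604 with TMM, and the same number of members, 3, was higher.

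Chad was concentrated in few cells. Of its 2080 UMIs, read in 154 cells, 1829 came from 28 cells with at least 10 UMIs each. The chondrocyte-like gate held 11 cells, all of them among these 28, with 25439 CPM of Chad. Of the 28 cells, 20 also held UMIs of Sox9, the chondrocyte transcription factor, 27 of Prelp, 25 of Lum and 6 of Fmod. The other chondrocyte markers were each read in fewer of them: Col2a1 and Col11a2 in 11, Acan and Col11a1 in 10, Hapln1 in 8, Comp in 7, Snorc in 6 and Cnmd in 5. The smooth muscle marker Acta2 was read in 20 and the fibroblast marker Pdgfra in 12. Flox/flox library 3 gave 1342 of the 2080 UMIs.

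The study compared ΔEC with flox/flox libraries. Slc38a2 itself was at 201, 277, 331 and 281 CPM in endothelial-like cells of ΔEC libraries 1 to 4, against 467, 384 and 332 CPM in flox/flox libraries 1 to 3. The groups of Slc38a2 did not overlap, as was so for 7.4% of 7717 genes in this class. Its log2 fold change of -0.45 (SE 0.22) did not pass (edgeR, adjusted p = 0.827). The sources used here do not say whether the counted part of the transcript lies in the deleted exons, so this level may not check the deletion. In fibroblast-like, smooth muscle-like and macrophage-like cells the log2 fold changes of Slc38a2 were -0.39, -0.09 and -0.44. Its groups also did not overlap in the inflammatory (-0.48) and Cilp/Myoc/Angptl1 (-0.24) states of fibroblast-like cells, so this was not particular to endothelial-like cells.

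Genotype moved 0 members past the threshold in 10 classes and states and in the test of the difference between fibroblast-like and smooth muscle-like cells. The share of all genes called was 0.0168% in Rgs5-positive smooth muscle-like cells and 0% in the other 9 and in the difference. In fibroblast-like cells 0 of 15329 genes were called (0%), 683 had an unadjusted p under 0.05, and DESeq2 called 5 genes and 0 members. In data simulated on these libraries with a change of 2-fold, the same test recovered 69.8% of 96 changed genes. The simulation used the trend of the spread over all genes, not the members' own spread, so it sets no limit for the members. Lum had the smallest p of the members there, with 597, 606, 554 and 376 CPM in ΔEC libraries 1 to 4, against 766, 597 and 985 CPM in flox/flox libraries 1 to 3. The ranges of Lum overlapped through flox/flox library 2, and its log2 fold change was -0.54 (SE 0.24), adjusted p = 0.959. Without flox/flox library 3, which had the highest Lum, the value was -0.27.

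For the other members the fibroblast-like levels of both genotypes overlapped. Dcn was at 10626, 11555, 10417 and 14238 CPM in ΔEC libraries 1 to 4, against 11314, 10425 and 13299 CPM in flox/flox libraries 1 to 3, a log2 fold change of 0.02 (SE 0.22). Fmod was at 698, 621, 767 and 311 CPM in ΔEC libraries 1 to 4, against 594, 522 and 713 CPM in flox/flox libraries 1 to 3, a log2 fold change of 0.00 (SE 0.30). Within each genotype the single libraries of Fmod differed more than the group means did. Bgn was at 3261, 2959, 2739.7 and 2180.5 CPM in ΔEC libraries 1 to 4, against 2581, 2704 and 3733 CPM in flox/flox libraries 1 to 3, a log2 fold change of -0.10 (SE 0.23). Ogn was at 2728, 3486, 3091 and 4260.1 CPM in ΔEC libraries 1 to 4, against 3119.8, 3702 and 3099 CPM in flox/flox libraries 1 to 3, a log2 fold change of 0.06 (SE 0.20). Ogn and Dcn were both highest in ΔEC library 4, in which Bgn and Lum were lowest.

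Prelp was at 1329, 984, 1023 and 866 CPM in ΔEC libraries 1 to 4, against 1032, 973 and 968 CPM in flox/flox libraries 1 to 3, a log2 fold change of 0.10 (SE 0.17). Aspn was at 613, 495, 456 and 446 CPM in ΔEC libraries 1 to 4, against 497, 548 and 496 CPM in flox/flox libraries 1 to 3, a log2 fold change of -0.01 (SE 0.14). Omd was at 148, 133, 144 and 147 CPM in ΔEC libraries 1 to 4, against 124, 155 and 156 CPM in flox/flox libraries 1 to 3, a log2 fold change of 0.00 (SE 0.14). The 2 genotypes overlapped for each of these 3 genes. Podn was at 285, 286, 348 and 201 CPM in ΔEC libraries 1 to 4, against 325, 339 and 301 CPM in flox/flox libraries 1 to 3, a log2 fold change of -0.16 (SE 0.20). Chad had 0.686, 0.568, 1.78 and 0.0458 CPM in ΔEC libraries 1 to 4, against 0.613, 0.392 and 5.19 CPM in flox/flox libraries 1 to 3, and its log2 fold change of -1.26 (SE 1.02) turned to 0.76 without flox/flox library 3. In the 4 states 0 members had genotypes that did not overlap, where 4.68% of genes did not overlap in the Hhip state, 5.62% in the inflammatory, 5.56% in the Pi16/Dpp4 and 7.46% in the Cilp/Myoc/Angptl1 state. Within the Hhip state the genotype values ran from -0.38 for Lum to 0.26 for Fmod, and within the Pi16/Dpp4 state from -0.43 for Lum to 0.05 for Ogn.

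In smooth muscle-like cells Fmod was the 1 member whose genotypes did not overlap, where 5.53% of 12887 genes did not overlap and 0% were called, with 612 at an unadjusted p under 0.05. Fmod was at 6.20, 5.48, 4.96 and 4.62 CPM in ΔEC libraries 1 to 4, against 33.4, 9.11 and 7.44 CPM in flox/flox libraries 1 to 3. Its log2 fold change was -1.53 (SE 0.44), adjusted p = 0.914, and -0.58 without flox/flox library 1. Lum was at 8.47, 14.7, 6.16 and 13.2 CPM in ΔEC libraries 1 to 4, against 58.2, 7.93 and 13.8 CPM in flox/flox libraries 1 to 3, with a log2 fold change of -1.31 (SE 0.59), and -0.06 without flox/flox library 1. Dcn was at 120.2, 146, 80.7 and 306 CPM in ΔEC libraries 1 to 4, against 595, 133 and 167 CPM in flox/flox libraries 1 to 3. Its log2 fold change of -0.79 (SE 0.54) turned to 0.11 without flox/flox library 1. Podn was at 8.35, 6.71, 7.29 and 12.5 CPM in ΔEC libraries 1 to 4, against 18.7, 8.48 and 9.45 CPM in flox/flox libraries 1 to 3, with -0.53 (SE 0.28), and -0.13 without that library. Of these 4 members Dcn, Lum and Fmod were not called above background in smooth muscle-like cells with TMM. Podn was above the macrophage-like level by 0.57 on the log2 scale. Flox/flox library 1, the highest for all 4, is also the one with the highest fibroblast marker sums in the other classes. The 11 fibroblast markers, of which Col1a1, Col1a2 and Col3a1 are also made by smooth muscle, summed to 4616, 4802, 4141 and 3353 CPM in smooth muscle-like cells of ΔEC libraries 1 to 4, against 5123, 4330 and 3874 CPM in those of flox/flox libraries 1 to 3, with 11 of 11 above 0 in each. Their part in the genotype values was not tested.

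For Bgn, Ogn and Prelp, well above background in smooth muscle-like cells, the genotypes overlapped. Bgn was at 2664, 2766, 2613 and 2740.0 CPM in ΔEC libraries 1 to 4, against 2262, 2790.2 and 3157 CPM in flox/flox libraries 1 to 3, a log2 fold change of 0.04 (SE 0.17). Ogn was at 1838, 1927, 1559.9 and 1149 CPM in ΔEC libraries 1 to 4, against 2099.7, 1857 and 1597 CPM in flox/flox libraries 1 to 3, a log2 fold change of -0.11 (SE 0.18). Prelp was at 451, 554, 514 and 631 CPM in ΔEC libraries 1 to 4, against 464, 503 and 472 CPM in flox/flox libraries 1 to 3, a log2 fold change of 0.24 (SE 0.14), adjusted p = 0.914. ΔEC library 4, with 353 smooth muscle-like cells, had the lowest Ogn and the highest Prelp and Aspn. Aspn had a log2 fold change of 0.27 (SE 0.33) and Omd of 0.01 (SE 0.17), with overlapping groups. In Rgs5-positive and in Rgs5-negative cells 1 member each, Fmod, had genotypes that did not overlap, where 5.53% and 4.8% of genes did not. Chad, with 116 UMIs in the class, had 1.89 (SE 0.99), adjusted p = 0.914.

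The difference of the genotype effect between fibroblast-like and smooth muscle-like cells was largest for Chad, -2.99 (SE 0.93), and Fmod, 1.45 (SE 0.51), and 0 of 15488 genes passed (0%; adjusted p = 1 for both). In macrophage-like cells, where the members' UMIs are background, 0 of the 8 members tested were called (0% of 10383 genes) and 0 had genotypes that did not overlap (8.42%), with log2 fold changes from -1.80 for Fmod to -0.39 for Dcn. Fmod was there at 6.0, 4.55, 6.44 and 13.6 CPM in ΔEC libraries 1 to 4, against 33.8, 6.53 and 49.1 CPM in flox/flox libraries 1 to 3. In endothelial-like cells 0 of 7 members tested were called (0% of 7717 genes) and 0 had genotypes that did not overlap (7.4%), from -2.05 for Lum, the lowest, to 0.00 for Aspn, and Bgn had -0.03 (SE 0.24). Bgn was at 1662, 2329, 2612 and 2452 CPM in ΔEC libraries 1 to 4, against 2033, 2618 and 2549 CPM in flox/flox libraries 1 to 3. Lum was at 33.5, 17.6, 6.24 and 14.9 CPM in ΔEC libraries 1 to 4, against 42.2, 15.8 and 173 CPM in flox/flox libraries 1 to 3. The value of Lum in flox/flox library 3 came from 37 UMIs. With no filter on low counts 1 member was called lower in each of 3 classes: Lum in endothelial-like cells and Fmod in macrophage-like and in Rgs5-positive smooth muscle-like cells. Other genes were called there too, and their numbers are given with the other settings below. With the filter, Lum in endothelial-like and Fmod in smooth muscle-like cells were not called above the macrophage-like background. These calls are therefore not read as a result about the members.

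**Figure D5:**
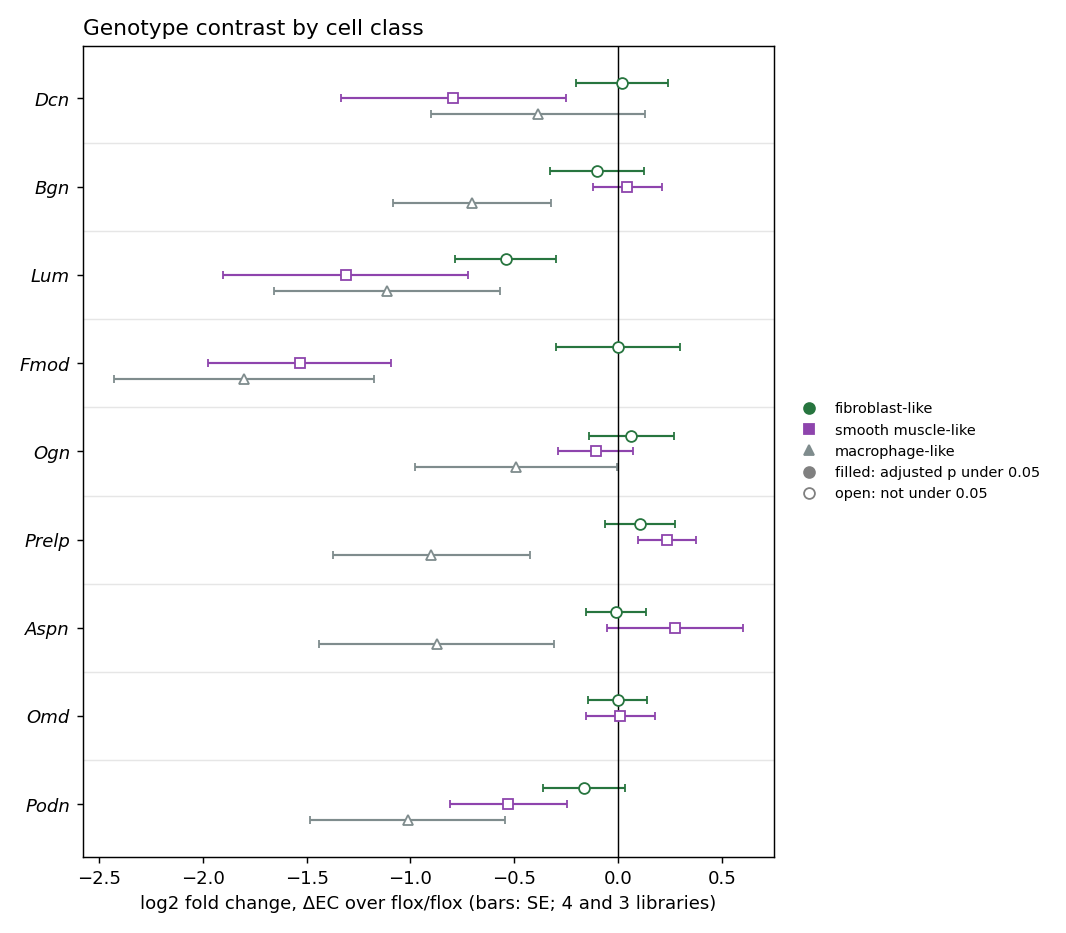
Log2 fold changes (points; bars are the SE) of 9 members in ΔEC over flox/flox libraries, from edgeR, in fibroblast-like, smooth muscle-like and macrophage-like cells; every point is open, since 0 passed an adjusted p of 0.05. Fibroblast-like points lie between -0.54 and 0.10, while Fmod, Lum and Dcn of smooth muscle-like cells, which are near background there, lie lower.

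Other genes of the pathway were read in the same fits. Of 13 fibril and fibril-associated collagens, 13 were higher in fibroblast-like than in smooth muscle-like cells. Col1a1, Col1a2 and Col3a1 among them are markers of the fibroblast-like gate. Their part in this count and in the median of the collagens is therefore no independent result. Of 20 enzymes that process, cross-link or cleave fibrils and proteoglycans, 18 were higher and 1 lower. Of all genes 38.8% were higher and 38.2% lower. Of 21 tested genes of chondroitin and dermatan sulfate synthesis 14 were higher and 6 lower, of 7 of keratan sulfate synthesis 4 higher and 1 lower, and of 16 ligands and receptors 12 higher and 4 lower. The median log2 fold change was 2.35 over the collagens, 2.29 over the enzymes, 0.60 and 0.82 over the chondroitin and keratan sulfate lists, 1.69 over the ligands and receptors, and 0.01 over all genes. Among 5 further leucine-rich proteoglycans, Tsku, which binds transforming growth factor beta and Wnt proteins, was at 13.5 CPM in fibroblast-like and 1.06 CPM in smooth muscle-like cells (mean of 7 libraries), a log2 fold change of 3.33 (SE 0.20). Optc, opticin, known from the vitreous of the eye, was the 1 that was lower, at 1.6 CPM in fibroblast-like and 65.3 CPM in smooth muscle-like cells, a log2 fold change of -5.49 (SE 0.12), adjusted p = 1.78e-10. Chadl was higher by 0.44, and Ecm2 had -0.06 (SE 0.08), adjusted p = 0.475.

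Between genotypes in fibroblast-like cells 0 genes of these lists passed, and 5 had an unadjusted p under 0.05 (3 of chondroitin sulfate synthesis, 1 ligand and 1 enzyme). The smallest p was that of Chst12, a chondroitin sulfotransferase, at 88.2 CPM in ΔEC and 67.5 CPM in flox/flox libraries, a log2 fold change of 0.41 (SE 0.11), adjusted p = 0.959. Its list companions Chst14, Chst3 and Chsy3 had 0.34, -0.69 and -0.57. Of the ligands and receptors, Tgfb1, the growth factor that decorin binds, had -0.76 (SE 0.27), adjusted p = 0.959, and Egfr, Kdr and Tgfb3 had -0.42, 0.33 and -0.19. Of the enzymes, the collagenase Mmp13 had -2.42 (SE 0.91), adjusted p = 0.959, at 0.466 CPM in ΔEC and 2.56 CPM in flox/flox libraries, and Adamts3, Loxl3 and Tll1 had -0.39, 0.26 and -0.69. Of the collagens, Col14a1, Col5a3, Col11a1 and Col16a1 had 0.22, -0.59, -0.50 and -0.15. Of keratan sulfate synthesis, St3gal2, Chst1, B4galt4 and St3gal3 had 0.26, 0.60, 0.14 and -0.18, and of the further family members Ecm2, Optc, Tsku and Chadl had -0.21, -0.42, 0.18 and -0.05.

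The genes whose levels followed each member most closely over 51 sums of 12 classes in 7 libraries, among 9244 genes, were as follows, by Pearson's r of log2 CPM. Dcn went with Gsn (0.92), Gfpt2 (0.92) and Cygb (0.90), and Fmod with Gsn (0.83), Abca8a (0.82) and Cygb (0.81). Bgn went with Mgp (0.96), a matrix protein that restrains calcification, and with Pam (0.95) and Fstl1 (0.94). Ogn, Prelp and Aspn each had Col1a2, a chain of type I collagen, among their 3 closest genes (0.93, 0.88 and 0.85). Lum went with Wnt5a (0.84), Hhip (0.82) and the member Dcn (0.79), Podn with Cilp (0.80), Tmem204 (0.80) and Bace1 (0.80), and Omd with Gabra3 (0.79) and Meg3 (0.78). The sums share libraries and depth, and these values carry no test.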

How the data were processed

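Single-cell RNA of aorta was counted in 7 libraries. The deposited matrices are UMI counts for each gene in each cell, not normalized. The submitters' processing notes name CASAVA 1.8, STARsolo 2.7.10a, Seurat and the build mm10, and 99.53% of the gene IDs matched GENCODE vM21, used for names and positions. Cells with at least 200 genes and at most 25% mitochondrial UMIs were kept, and doublets called by Scrublet (scanpy 1.11.5, expected rate 0.06; 0.942% to 2.03% per library) were removed. Each cell had a score per class, the mean over its markers of the scaled log expression per 10000 UMIs (90th percentile of positive cells set to 1). A class needed a score of 0.25, a lead of 0.15 over the next class and 3 markers. States of fibroblast-like cells needed a score of 0.4, a lead of 0.2 and 2 genes (for Hhip, 2 UMIs). Within 0.05 of the class threshold lay 1463 cells inside and 1392 outside, and within 0.05 of the state threshold 2387 inside and 3363 outside.

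Counts were summed per library and class with at least 20 cells, and tested with edgeR 4.0.16 (R 4.3.3) by quasi-likelihood, with TMM scaling, filterByExpr and Benjamini-Hochberg adjustment over all genes tested at 0.05. Classes and states were compared with the library as a block, and genotypes over 4 ΔEC and 3 flox/flox libraries. SE is the log2 fold change divided by the square root of F. CPM values carry no TMM. Tests were checked on simulated counts. DESeq2 1.42.0, other scalings, filters, gates and left-out libraries were the alternatives. Library totals and the stricter state score of 0.5 were chosen after seeing the data.

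The members and gene lists were chosen with earlier results of these data known. The markers were fixed in the design, but the score thresholds were set after levels in these data, those of the members included, had been seen (4 class settings and 2 state settings were tried). Named were the 10 members, Slc38a2, the 4 genes of each list with the smallest p between genotypes in fibroblast-like cells, and the 3 genes most correlated with each member (mean of at least 10 CPM, prior count 2), of which 1 is not reported here. Further family members were named between classes as well, after their values were seen.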

Additional observations from a re-analysis of the deposited data

Results flagged for a closer look

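In 6 of 90 groups tested, 1 library stood apart from the rest of its group by Dixon's criterion, which chance meets in about 1 of 20 groups. In endothelial-like cells of ΔEC libraries, Podn was highest in library 1 at 19.16 CPM, and the next library had 8.912 CPM. In macrophage-like cells of ΔEC libraries, Lum was lowest in library 3 at 4.057 CPM, and the next had 11.67 CPM. The Podn value came from 54 cells. Pooled over libraries, Podn was at 9.72 CPM in endothelial-like and 7.09 CPM in macrophage-like cells. Lum in macrophage-like cells is itself taken here as background.

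The log2 ratio of Ogn in fibroblast-like over smooth muscle-like cells was highest in ΔEC library 4, at 1.891, and the next of the 7 libraries had 0.9956. That library had 353 smooth muscle-like cells, the fewest. In Rgs5-positive over Rgs5-negative cells, the log2 ratio of Bgn was highest in ΔEC library 4, at 0.2014, and the next had 0.006539. It held 47 Rgs5-positive cells. In the Cilp/Myoc/Angptl1 state over cells of no state, flox/flox library 3, with 26 cells in that state, had the lowest log2 ratio of Bgn, -0.5533 (next -0.2197), and the highest of Ogn, 0.901 (next 0.44). The part of cell number in these values was not tested.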

How the results depend on the processing

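The 56 member values called between classes or states kept their direction and call in 679 of 700 alternatives, lost the call in 20 and reversed in 1, Bgn in the inflammatory state with library totals (-0.0705). The 129 values not called were the same in 1466 of 1706 alternatives, became called in 33 and changed sign in 207. Of the 30 among them that are given one by one, or belong to the genotype tests of fibroblast-like and smooth muscle-like cells, 54 of 431 alternatives changed sign. Whether replicate numbers pair the libraries was not settled. Same-numbered ΔEC and flox/flox libraries correlated at 0.16, -0.02 and 0.22 in fibroblast-like and 0.11, 0.17 and 0.06 in smooth muscle-like cells. Differently numbered ones correlated at -0.27 to 0.20 and at -0.13 to 0.08. The label of flox/flox library 2 gives it the number 1. The replicate block, without ΔEC library 4, called 0 members and at most 8 genes. It turned the sign in fibroblast-like cells of Fmod (0.237), Bgn (0.049), Dcn (-0.0574), Aspn (0.0528), Omd (0.0128) and Ogn (-0.0539), and in smooth muscle-like cells of Aspn (-0.0228) and Ogn (0.019). Between genotypes in fibroblast-like cells, no filter on low counts gave 0.0199 for Fmod, 0.00144 for Aspn and 0.0107 for Omd, and Fmod was at 0.00196 with DESeq2 size factors and 0.00178 in DESeq2. In smooth muscle-like cells, Bgn was at -0.0221 with library totals and -0.0277 with the stricter cell filter, and Omd at -0.0647 with library totals. Bgn between fibroblast-like and smooth muscle-like cells was at 0.000697 with DESeq2 size factors, 0.000942 in DESeq2 and 0.0743 with library totals. Lum between smooth muscle-like and macrophage-like cells was at -0.0306 with the stricter marker gate, and Prelp in the inflammatory state at 0.00094 and 0.0015 with DESeq2 size factors and DESeq2. Leaving out 1 library gave, between genotypes in fibroblast-like cells, -0.187 to 0.228 for Fmod, -0.234 to 0.157 for Bgn, -0.0768 to 0.189 for Dcn, -2.10 to 0.765 for Chad, -0.0849 to 0.0588 for Aspn, -0.136 to 0.115 for Omd and -0.0385 to 0.177 for Ogn. In smooth muscle-like cells it gave -0.115 to 0.226 for Bgn, -1.26 to 0.110 for Dcn, -0.0658 to 0.437 for Aspn, -0.102 to 0.177 for Omd and -0.206 to 0.0188 for Ogn. For Bgn between fibroblast-like and smooth muscle-like cells it gave -0.0911 to 0.00649, and in the inflammatory state -0.0346 to 0.0422 for Prelp and -0.0664 to 0.0307 for Podn. With no filter on low counts 1 member was called between genotypes in endothelial-like, macrophage-like and Rgs5-positive smooth muscle-like cells, where 61, 44 and 36 genes were called. DESeq2 called 0 members and 0 to 12 genes between genotypes. The causes were not tested. Depth limits Chad and the members near background in smooth muscle-like, endothelial-like and macrophage-like cells.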

Other observations

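Among further family members, Optc was at 1.6 CPM in fibroblast-like cells and 65.3 CPM in smooth muscle-like cells, the opposite order to Dcn, Lum, Fmod and Podn. Of the 28 cells with at least 10 UMIs of Chad, 11 passed the chondrocyte-like gate. Over these 28 cells the pooled level of Col2a1, the collagen of cartilage, was 1452 CPM, of Omd 780.4 CPM and of Podn 33.9 CPM. Col2a1 was read in 11 of the 28.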
